A study of Mus musculus with 19 samples.

Results

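The genes described here are 10 genes of acid and base transport in the intercalated cells of the kidney collecting duct: Slc4a1, Slc4a9, Slc26a4, Atp6v1b1, Atp6v0d2, Atp6v1g3, Atp6v0a4, Foxi1, Rhcg and Rhbg. They were chosen by name, and their rows were found by gene ID. All 10 were found among the 19287 entries of the deposited table, and all 10 had enough signal to be tested. Kidney RNA was sequenced in 19 libraries from males of C57BL/6, an inbred mouse strain. The sham group (n = 5) had a mock operation. The IR group (n = 5) had ischemia-reperfusion, in which renal blood flow is stopped and then restored, and kidneys were taken on day 5 after the injury. The IRLac (n = 5) and IRLacz (n = 4) groups had the same injury after 4 weeks of daily oral gavage with a Lactobacillus strain. The abbreviation for L. casei Zhang in the series text matches IRLacz, and IRLac was taken as L. acidophilus by elimination. Whether sham and IR mice received a control gavage is not stated, so the bacteria and the act of gavage cannot be told apart. All comparisons with sham share the same 5 sham libraries. The labels do not say that each library is a different mouse, and a p-value therefore measures the spread between these libraries, which may be technical.

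Intercalated cells lie between the water- and sodium-transporting principal cells of the collecting duct and connecting tubule. Type A cells secrete protons into the urine through a vacuolar proton pump and return bicarbonate to the blood through the anion exchanger AE1, the product of Slc4a1. Type B cells secrete bicarbonate through pendrin, the product of Slc26a4, and carry the exchanger AE4, the product of Slc4a9. The pump is assembled from many subunits, several of which have an isoform concentrated in these cells, among them B1 (Atp6v1b1), d2 (Atp6v0d2), G3 (Atp6v1g3) and a4 (Atp6v0a4). Foxi1 is the forkhead transcription factor required for the intercalated cell fate. Rhcg and Rhbg encode ammonia channels. Rhbg lies on the basolateral side, and Rhcg also on the apical side, where ammonia passes into the urine and binds secreted acid.

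The promoters of the B1 and a4 subunit genes are shown because both pump genes were lower after injury and because each held a motif linked to a collecting duct regulator. RefSeq promoter entries of 6 of the 10 genes were used. The search for the 10 genes left out 1 chromosome, so any entry there was not counted. The 32851 windows given below for comparison were not cut in this way. Each window is the 250 bases before the annotated start of transcription, 5′ to 3′ on the strand of the gene, from build GRCm38.p6. Capitals mark TGTTTAC, the forkhead core motif, in Atp6v1b1 (chr6:83742767-83743016, plus strand), and the fixed letters of CCAG repeated after a gap of 6 bases, the motif of the collecting duct factor Tfcp2l1, in Atp6v0a4 (chr6:38124587-38124836, minus strand).
Atp6v1b1: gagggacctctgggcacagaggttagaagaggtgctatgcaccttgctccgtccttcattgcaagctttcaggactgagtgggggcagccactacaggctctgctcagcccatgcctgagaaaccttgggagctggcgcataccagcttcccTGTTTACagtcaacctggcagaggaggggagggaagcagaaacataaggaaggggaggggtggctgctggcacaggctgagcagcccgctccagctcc
Atp6v0a4: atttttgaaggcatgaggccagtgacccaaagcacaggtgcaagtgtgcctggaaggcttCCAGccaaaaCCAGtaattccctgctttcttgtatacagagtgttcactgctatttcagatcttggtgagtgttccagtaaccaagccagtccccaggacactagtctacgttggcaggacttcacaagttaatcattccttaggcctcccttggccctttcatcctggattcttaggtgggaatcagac
The forkhead match began 98 bases before the start of Atp6v1b1, and the other match began 190 bases before the start of Atp6v0a4. Searched on both strands, TGTTTAC was in 1 of the 6 windows and in 3.17% of 32851 RefSeq promoter windows of the same length. The repeated CCAG was in 1 of the 6 and in 2.78% of all windows. The related forkhead motif TGTTTGC was in 0 of the 6 and in 4.3% of all windows. A match is a description of letters and not of a bound site.

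Values are FPKM, fragment counts scaled by the authors to gene length and library size, so that levels of different genes can be compared. The FPKM of a library summed to between 545590 and 584798, a sum that says nothing of sequencing depth, which is unknown. Differences are given as limma estimates on the log2(FPKM + 1) scale, which understates changes of low genes, with p-values adjusted over all 13594 entries tested and a threshold of 0.05. Some libraries stood apart from their groups in these genes. On the mean of the 10 genes, with the sham mean set to 0, the IR libraries lay between -1.20 and -0.53, with IR replicate 5 the highest. The IRLac libraries lay between -0.97 and -0.14, with replicate 3 the highest, and the IRLacz libraries between -0.50 and -0.08, with replicate 1 the highest. In the same libraries the mean of 11 macrophage genes was lowest for IRLac replicate 3 (2.18, against 2.76 to 3.08 in the other IRLac libraries) and IRLacz replicate 1 (1.73, against 2.45 to 2.90), whereas IR replicate 5 (3.03) lay inside the IR range of 2.95 to 3.28. Their part in the results was not tested beyond leaving these libraries out.

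**Figure D1:**
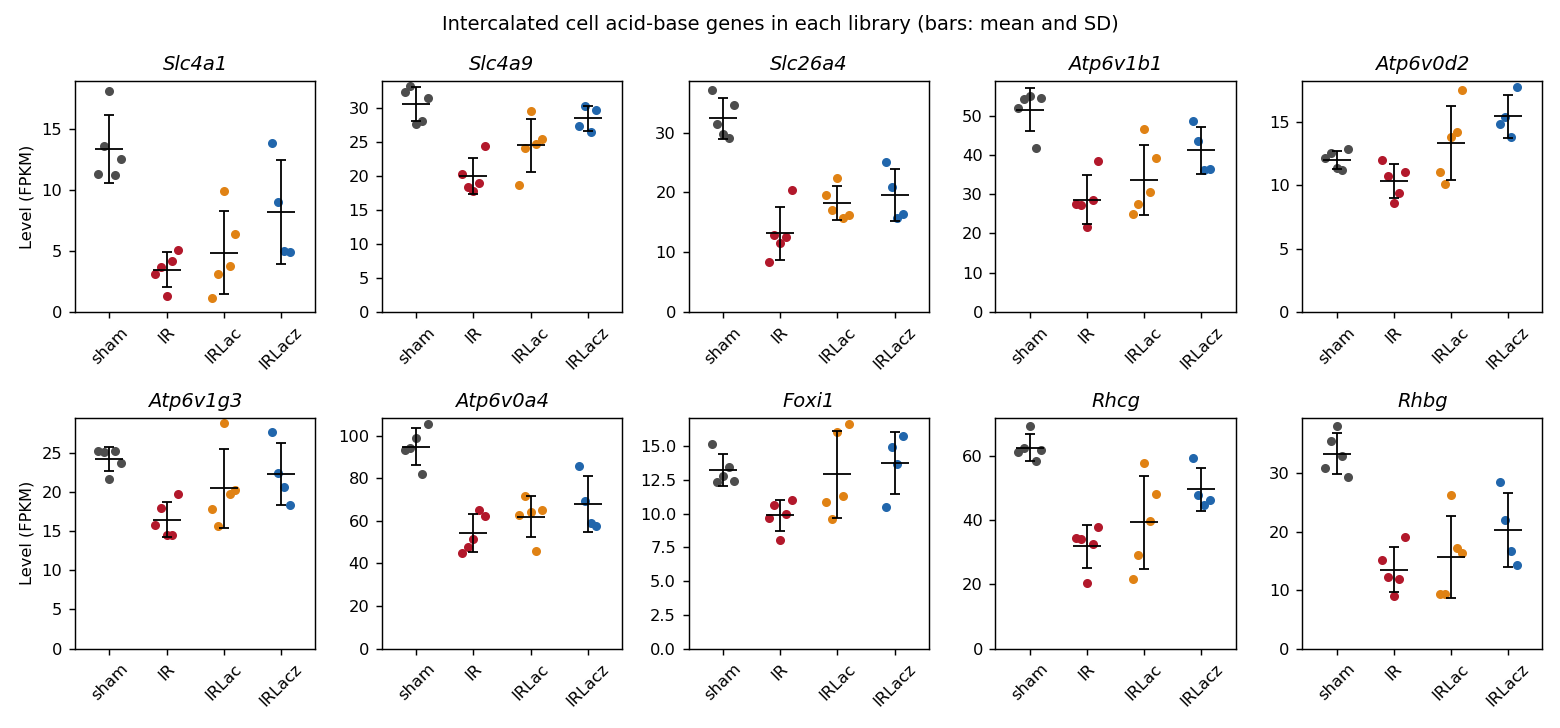
Level in FPKM (vertical axis, from 0) of each of the 10 genes in every library of the sham, IR, IRLac and IRLacz groups (horizontal axis). Points are libraries and bars are the mean and SD, and IR had the lowest mean in 10 of 10 panels.

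IR and sham kidneys were compared first, for the effect of the injury on these genes. By limma 9 of the 10 genes were called lower in IR, 0 were called higher, and Atp6v0d2 did not pass. The median log2 difference over the 10 genes was -0.82, against 0.29 over all entries tested. Of all entries 75.6% were called in this comparison, 18.6% lower and 57% higher. In the same 9 genes every IR library lay below every sham library, which held for 15.2% of all entries, while 48.6% lay wholly above. In whole kidney RNA, fewer cells of a type and less RNA per cell cannot be told apart. Nor is it known which cells the RNA of a gene came from, for these 10 genes as for others.

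Among the anion exchangers, the type A gene Slc4a1 (gene ID 20533) had the largest estimate. It was at 11.31, 13.55, 18.06, 11.23 and 12.53 FPKM in the sham libraries and at 3.07, 3.71, 1.31, 4.15 and 5.07 FPKM in the IR libraries. All IR libraries lay below all sham libraries. The means were 13.34 ± 2.81 (SD, n = 5) and 3.462 ± 1.41 FPKM (n = 5), and limma estimated the log2 difference at -1.73 (SE 0.36, adjusted p = 0.00026). The pendrin gene Slc26a4 (23985) was at 37.19, 31.38, 29.7, 29.06 and 34.63 FPKM in sham and at 8.36, 12.79, 11.48, 12.6 and 20.47 FPKM in IR. Here IR replicate 5 stood above the other IR libraries, and still below all sham libraries. The log2 difference was -1.29 (SE 0.17, adjusted p = 2.1e-06). Slc4a9 (240215) fell from 30.53 ± 2.52 to 19.97 ± 2.64 FPKM (log2 difference -0.59, SE 0.10, adjusted p = 3.3e-05).

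Slc4a1 is also the band 3 gene of red blood cells, so red cell genes are given beside it. The summed FPKM of 9 red cell genes without globins was 1.33 to 4.53 in sham and 2.5 to 2.57 in IR. This sum held opposite changes. Alas2, which was too low to test, was at 1.416 ± 1.2 FPKM in sham and 0.274 ± 0.129 in IR. Epb42 was at 0.164 ± 0.078 and 0.906 ± 0.161 FPKM, and Sptb at 1.004 ± 0.0799 and 1.082 ± 0.0669 FPKM. The red cell genes Rhag and Rhd were listed at 0 in 18 and 16 of the 19 libraries and nowhere above 0.14 FPKM. Of the 13 red cell genes 6 could be tested, of which the 4 globin genes were lower and 1 other gene was higher in IR. With the 4 globin genes, which include near-identical copies, the sum was 223.75 to 1353.34 FPKM in sham and 55.25 to 224.1 FPKM in IR. Sham replicate 3 had both the highest globin-containing sum and the highest Slc4a1 value. Sham replicate 5, with the next highest sum of 1030.54 FPKM, had Slc4a1 at 12.53 FPKM, inside the range of the other sham libraries. The log2 difference of Slc4a1 between IR and sham stayed between -1.86 and -1.51 when each library was left out in turn.

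Both ammonia channel genes fell. Rhbg (58176), which encodes the basolateral channel, was at 30.97, 35.49, 38.04, 32.89 and 29.42 FPKM in sham and at 15.22, 12.26, 9.04, 11.82 and 19.11 FPKM in IR. No IR library reached the lowest sham library. The log2 difference was -1.28 (SE 0.24, adjusted p = 0.00011). Rhcg (56315), which encodes the channel found on the apical and basolateral sides, fell from 62.6 ± 4.09 to 31.89 ± 6.69 FPKM (log2 difference -0.98, SE 0.20, adjusted p = 0.00024). The GENCODE annotation places the gene models Gm38392 and Gm45170 over Rhbg and Rhcg, so reads there could be divided in a way the deposited table does not show.

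Of the 4 pump subunit genes, 3 fell and Atp6v0d2 did not pass. Atp6v1b1 (110935) was at 52.01, 54.21, 54.98, 41.82 and 54.57 FPKM in sham and at 27.38, 27.22, 21.57, 28.4 and 38.53 FPKM in IR. The lowest sham library was replicate 4 and the highest IR library was replicate 5, and the groups remained apart. The log2 difference was -0.84 (SE 0.16, adjusted p = 9.7e-05). Atp6v0a4 (140494) had the highest level per length of the 10 genes and fell from 94.77 ± 8.67 to 54.21 ± 8.89 FPKM (log2 difference -0.80, SE 0.13, adjusted p = 2.1e-05). Its span overlaps those of Tmem213 and Gm23231 on the opposite strand and of D630045J12Rik on the same strand. Strand handling is not given in the sources used here, so how reads in any shared stretch were divided is not known. Atp6v1g3 (338375) fell from 24.27 ± 1.56 to 16.53 ± 2.3 FPKM (log2 difference -0.54, adjusted p = 0.0012). Atp6v0d2 (242341) was at 12.15, 12.53, 11.41, 11.21 and 12.88 FPKM in sham and at 11.97, 10.77, 8.57, 9.41 and 11.04 FPKM in IR. Its groups overlapped, and the log2 difference of -0.21 (95% interval -0.45 to 0.04) did not pass (adjusted p = 0.11). With median-ratio scaling, which brought the median difference of all entries from 0.29 to 0.004, Atp6v0d2 was called lower (log2 difference -0.52, adjusted p = 0.000356).

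Foxi1 (14233), the transcription factor gene, had the smallest fall among the called genes. It was at 15.2, 12.33, 12.77, 13.44 and 12.45 FPKM in sham and at 9.66, 10.67, 8.04, 9.94 and 11.02 FPKM in IR. The groups did not overlap, and the gap between the lowest sham and the highest IR library was small. The log2 difference was -0.39 (SE 0.13, adjusted p = 0.013). As a percentage of the sham mean, the IR mean was 26% for Slc4a1, 40.4% for Rhbg, 40.6% for Slc26a4, 50.9% for Rhcg, 55.6% for Atp6v1b1, 57.2% for Atp6v0a4, 65.4% for Slc4a9, 68.1% for Atp6v1g3, 74.5% for Foxi1 and 86% for Atp6v0d2. Leaving out each library in turn kept 9 calls in 10 of 10 settings. Over all entries, the balance of calls differed by scaling: 7747 were higher and 2529 lower as deposited, and 4764 were higher and 4794 lower with median-ratio scaling, under which all 10 genes were called lower.

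**Figure D2:**
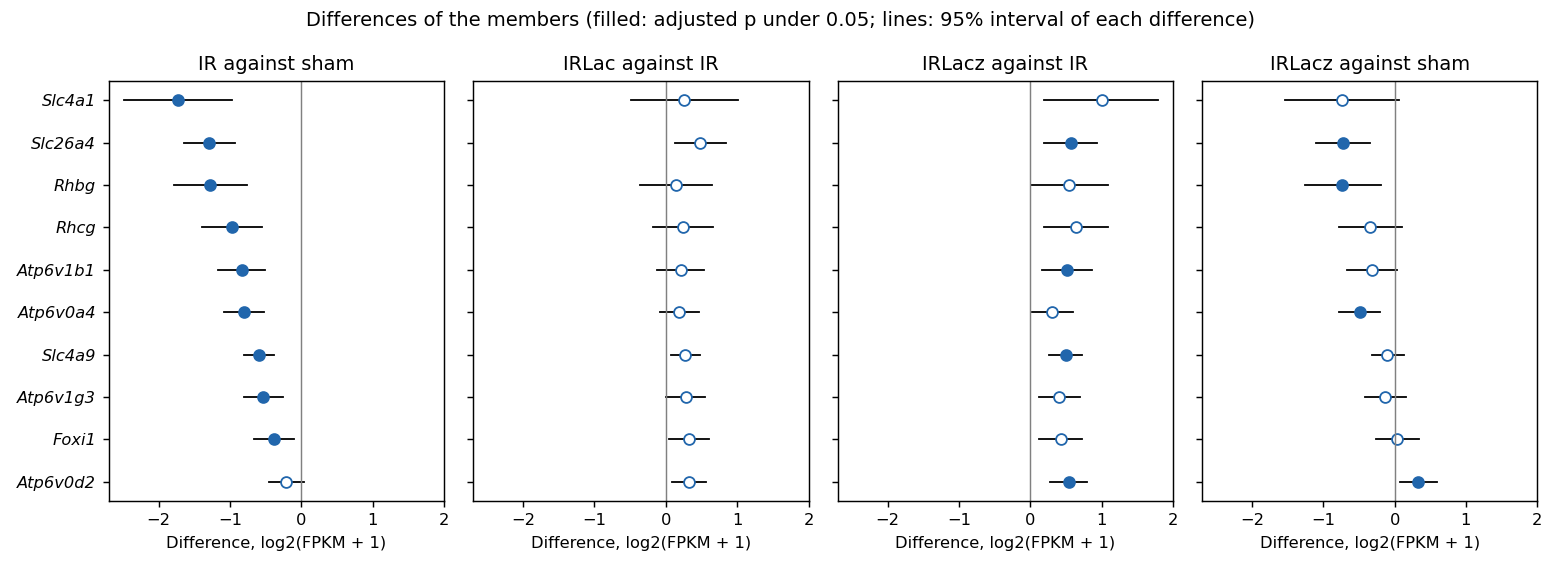
Difference on the log2(FPKM + 1) scale (horizontal axis) of each gene (vertical axis) in 4 comparisons. Points are limma estimates, lines are 95% intervals and filled points have an adjusted p under 0.05, which holds for 9 genes in IR against sham, 0 in IRLac against IR, 4 in IRLacz against IR and 4 in IRLacz against sham.

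The other genes of the pump were a mixed group. Of 21 further genes for pump subunits and accessory proteins, 20 were tested. In IR 6 were lower and 4 higher than in sham, with a median log2 difference of -0.075. Atp6v1c2, which encodes the C2 isoform, fell from 20.55 ± 0.723 to 8.166 ± 2.18 FPKM (log2 difference -1.26, adjusted p = 3.4e-06). Atp6v1a, which encodes the catalytic A subunit, fell from 134.2 ± 11.9 to 75.59 ± 9.17 FPKM (log2 difference -0.82). Tcirg1, which encodes the a3 isoform found in lysosomes, macrophages and osteoclasts, rose from 12.74 ± 1.7 to 41.71 ± 4.02 FPKM (log2 difference 1.64, adjusted p = 1.1e-09). The summed level of the 11 macrophage genes was 101.79 to 137.59 FPKM in sham and 1334.74 to 1906.06 FPKM in IR, and its part in the rise of Tcirg1 was not tested.

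**Figure D3:**
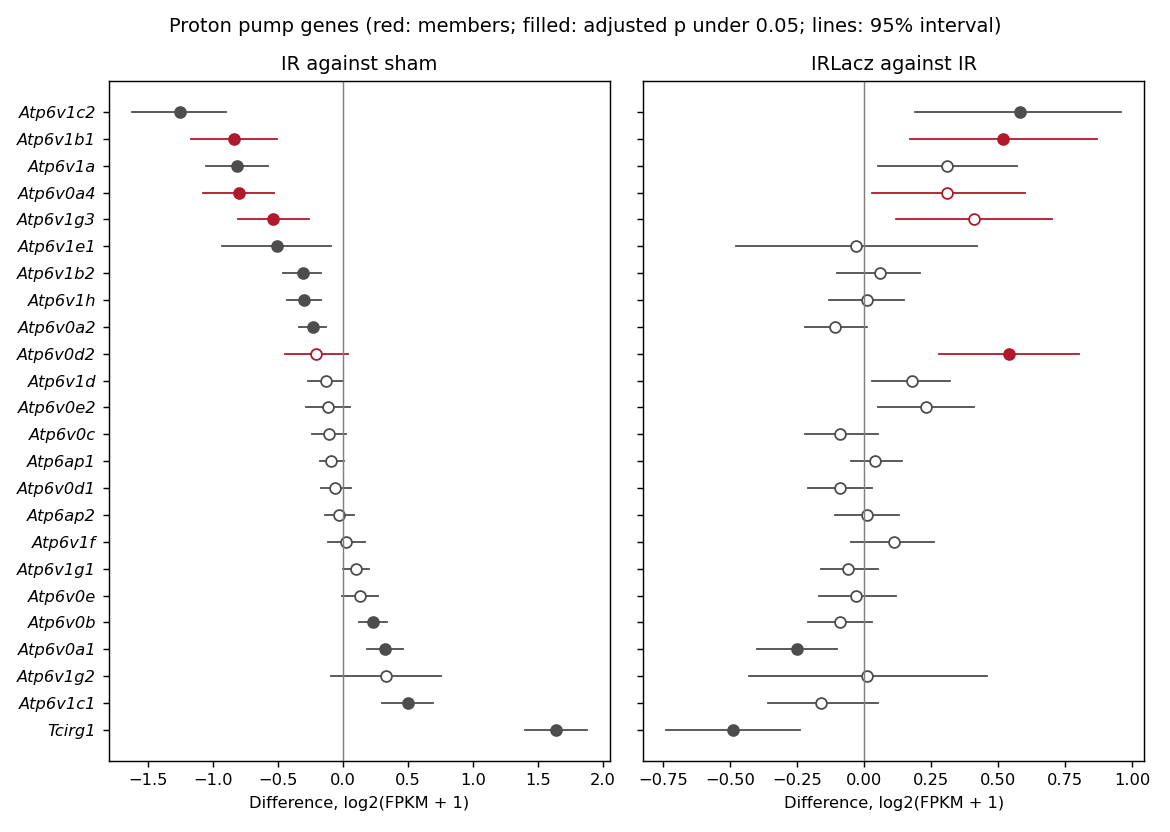
Difference on the log2(FPKM + 1) scale (horizontal axes, with different ranges) of 24 proton pump genes (vertical axis), in IR against sham and in IRLacz against IR. Red points are the 4 intercalated cell isoforms and grey points the others, lines are 95% intervals, and filled points have an adjusted p under 0.05; Atp6v1c2 and Tcirg1 lie at the ends in IR against sham, at -1.26 and 1.64.

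Isoform shares compare subunits within a library and do not depend on how libraries were scaled. Each share is the percentage of the summed FPKM of all isoforms of that subunit. In all, 4 shares and 3 gene ratios were compared in 6 group comparisons with two-sided exact permutation tests. P-values were adjusted over these 42 tests, and the smallest p the tests can give is 0.00794, which became 0.0333 after adjustment. The a4 share of the a subunit was 63.319, 64.009, 66.517, 59.827 and 68.548% in sham and 33.566, 35.642, 38.123, 45.03 and 44.174% in IR. The groups were far apart. The mean difference was -25.14 percentage points (exact permutation p = 0.00794, adjusted p = 0.0333). The a1 gene Atp6v0a1 rose from 20.17 ± 1.28 to 25.38 ± 0.785 FPKM and the a2 gene Atp6v0a2 fell from 19.14 ± 0.356 to 16.13 ± 0.884 FPKM. The a3 gene Tcirg1, which is also in the sum, rose from 12.74 ± 1.7 to 41.71 ± 4.02 FPKM. A lower a4 share therefore reflects both the fall of Atp6v0a4 and the rise of other isoforms, and their separate parts were not tested.

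The G3 share of the G subunit was 13.1 ± 0.716% in sham and 8.679 ± 1.02% in IR, without overlap (exact permutation adjusted p = 0.0333). The common isoform Atp6v1g1 was at 158.8 ± 6.24 and 170.6 ± 5.54 FPKM (limma adjusted p = 0.057), and Atp6v1g2 was at 2.222 ± 0.773 and 3.014 ± 0.832 FPKM. The B1 share of the B subunit was 24.34 ± 2.03% in sham and 18.14 ± 3.15% in IR, and the groups overlapped through IR replicate 5 (22.799%). That difference did not pass after adjustment (exact permutation p = 0.0159, adjusted p = 0.0513). The common isoform Atp6v1b2 also fell, from 160.2 ± 13.6 to 128.6 ± 8.41 FPKM. The d2 share of the d subunit was 13.36 ± 0.727% in sham and 12.11 ± 1.42% in IR and did not pass (exact permutation adjusted p = 0.258). Its partner Atp6v0d1 was at 78.05 ± 2.35 and 75.08 ± 3.22 FPKM. With a sham library left out, 0 of these 7 values passed after adjustment in IR against sham, while the a4 share difference stayed between -26.29 and -24.11 points. The unadjusted p was already the smallest the tests can give, so these losses say nothing of stability. With an IR library left out between 3 and 5 passed.

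**Figure D4:**
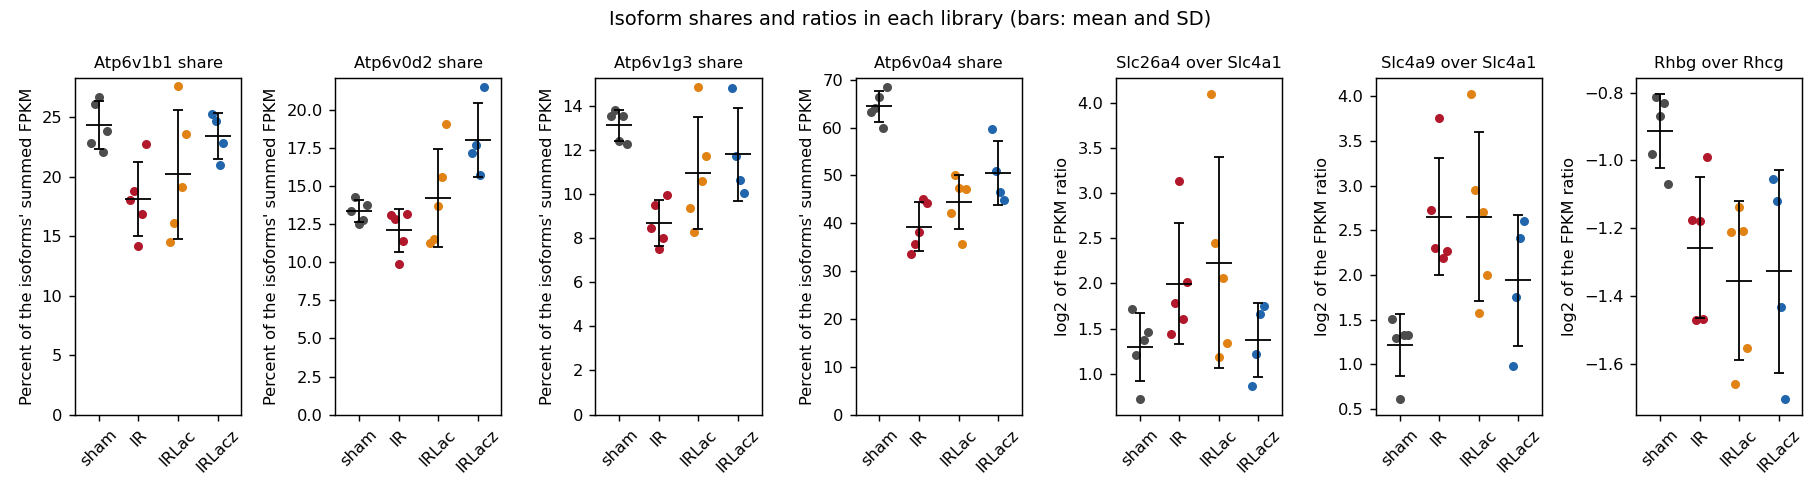
Isoform shares of the pump subunits (percent of the summed FPKM of all isoforms, axis from 0) and log2 ratios of FPKM between members (axis not from 0), in each library of the 4 groups. Bars are the mean and SD; the a4 share is 64.44% in sham and 39.31% in IR on average, and the d2 share is highest in IRLacz, at 18.05%.

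Ratios between members showed which genes changed unequally. The log2 ratio of Slc4a9 over Slc4a1, a type B gene over a type A gene, was 1.513, 1.291, 0.61, 1.325 and 1.33 in sham and 2.724, 2.309, 3.763, 2.195 and 2.266 in IR. All IR libraries lay above all sham libraries. The mean rose from 1.214 ± 0.348 to 2.651 ± 0.655 (exact permutation p = 0.00794, adjusted p = 0.0333). The ratio of Slc26a4 over Slc4a1 was 1.297 ± 0.372 in sham and 1.996 ± 0.669 in IR, with overlap, and missed the threshold (exact permutation p = 0.0476, adjusted p = 0.125). The ratio of Rhbg over Rhcg was -0.912 ± 0.109 in sham and -1.256 ± 0.208 in IR and did not pass after adjustment (exact permutation p = 0.0159, adjusted p = 0.0513).

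Other genes of intercalated cells and acid handling moved mostly downward after injury. Of 19 further intercalated cell genes 17 were tested, of which 11 were lower and 1 was higher in IR than in sham (median log2 difference -0.49). Oxgr1, the receptor for oxoglutarate on type B cells, fell from 9.296 ± 1.37 to 2.576 ± 0.611 FPKM (adjusted p = 6.4e-08). Insrr, the alkali-sensing insulin receptor-related receptor, fell from 10.03 ± 0.805 to 3.49 ± 0.784 FPKM. P2ry14, a receptor for UDP-glucose, rose from 1.022 ± 0.443 to 3.326 ± 0.312 FPKM. Slc26a7 and Atp12a stayed under 1 FPKM in all 19 libraries and were not tested. Of 8 genes for acid-base transport and ammonia production in the proximal tubule 7 fell and 1 rose. Pck1, an enzyme that consumes the carbon skeleton left by ammonia production, fell from 825.2 ± 59.3 to 171.6 ± 48.9 FPKM. The membrane carbonic anhydrase gene Car4 fell from 150.5 ± 8.09 to 51.02 ± 11 FPKM, and Glul, which encodes the ammonia-consuming glutamine synthetase, from 206 ± 10.7 to 130 ± 12.9 FPKM.

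In principal cells, the neighbours of intercalated cells, 5 of 14 genes were called lower, 1 higher and 8 neither (median log2 difference -0.235). Of the 14 estimates 3 were above 0. The sodium channel gene Scnn1a fell from 54.27 ± 5.5 to 26.1 ± 5.49 FPKM, the potassium channel gene Kcnj1 from 75.63 ± 7.59 to 36.37 ± 7.49 FPKM and the water channel gene Aqp3 from 73.52 ± 3.3 to 42.95 ± 13.3 FPKM. Kcnj1 is also a gene of the thick limb. Elf5 was the gene called higher, from 0.602 ± 0.35 to 1.328 ± 0.411 FPKM. The water channel gene Aqp2 was at 237.4 ± 54.8 FPKM in sham and 324.6 ± 139 in IR and was not called (limma log2 difference 0.39, adjusted p = 0.24). All 10 proximal tubule genes fell (median -1.115), including the endocytic receptor genes Lrp2 (141.1 ± 11 to 56.81 ± 9.9 FPKM) and Cubn (40.11 ± 1.96 to 18.48 ± 2.99 FPKM) and the phosphate transporter gene Slc34a1. In the thick limb and distal tubule 6 of 8 fell (median -1.41), including Egf, Pvalb and the magnesium channel gene Trpm6. All 11 macrophage genes rose (median 3.28), as did all 8 fibroblast genes (median 2.14). The lists for endothelium (3 higher and 2 lower of 6), podocytes (1 and 3 of 5) and urothelium (1 and 1 of 7) were divided.

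**Figure D5:**
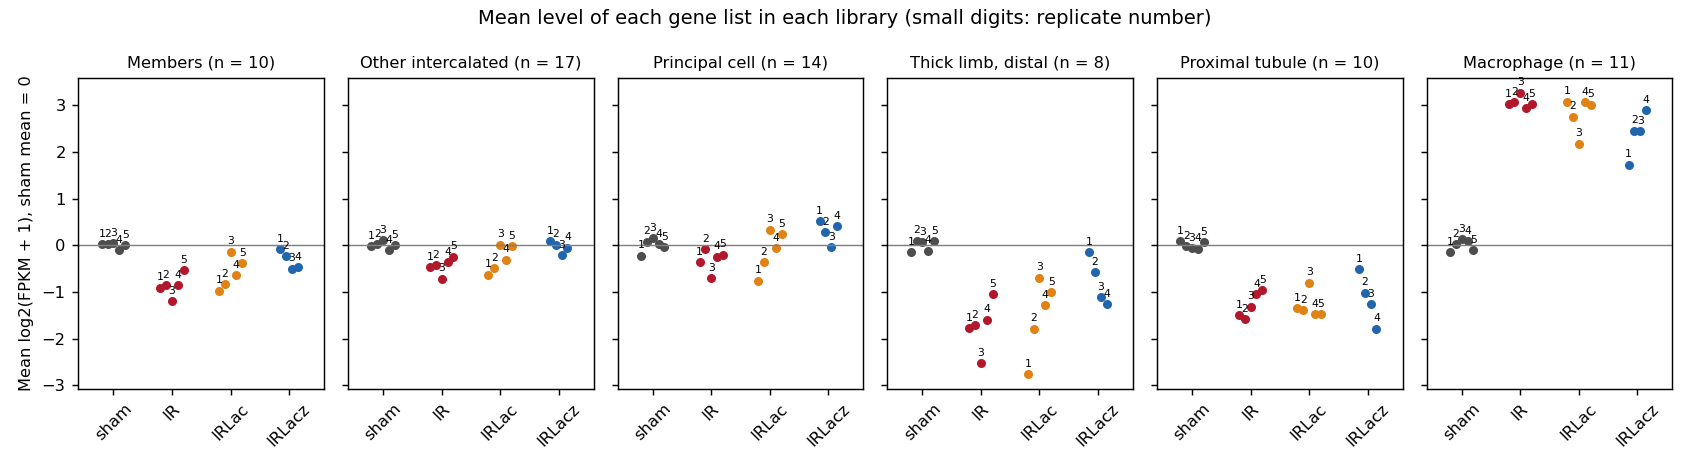
Mean log2(FPKM + 1) of the tested genes of 6 lists (vertical axis, sham mean set to 0) in each library of the 4 groups, with the replicate number beside each point. The 10 acid-base genes lie between -1.20 and -0.53 in IR and between -0.50 and -0.08 in IRLacz, and macrophage genes lie above 1.7 in all injured libraries.

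IRLacz was compared with IR to set injured kidneys with prior L. casei Zhang gavage beside those without. In IRLacz 4 of the 10 genes were called higher than in IR (Slc4a9, Slc26a4, Atp6v1b1 and Atp6v0d2) and 0 lower, against 5.39% of all entries called higher and 7.92% lower. All 10 estimates were above 0, with a median of 0.53, against -0.004 over all entries. All 10 had an unadjusted p under 0.05, as did 30.7% of all entries. Slc4a9 was at 27.32, 30.24, 26.52 and 29.68 FPKM in IRLacz and at 20.29, 18.38, 17.78, 19 and 24.38 FPKM in IR. Every IRLacz library lay above every IR library. The log2 difference was 0.50 (SE 0.11, adjusted p = 0.0095). Atp6v0d2 was at 14.85, 15.43, 13.79 and 17.79 FPKM in IRLacz, again above all IR libraries, with a log2 difference of 0.54 (SE 0.12, adjusted p = 0.012). These 2 calls held in all 9 settings that left out 1 library, with the highest adjusted p at 0.0327 and 0.0396.

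The calls of Slc26a4 and Atp6v1b1 were close to the threshold. Slc26a4 was at 25.11, 20.92, 15.7 and 16.35 FPKM in IRLacz, and replicates 3 and 4 lay below the highest IR library (20.47 FPKM). The log2 difference was 0.57 (SE 0.18, adjusted p = 0.044). Atp6v1b1 was at 48.59, 43.52, 36.23 and 36.37 FPKM, with IR replicate 5 (38.53 FPKM) above replicates 3 and 4 of IRLacz (log2 difference 0.52, SE 0.17, adjusted p = 0.045). Neither passed with median-ratio scaling, with no filter on low values or with only the 2 groups in the model. Both calls were lost without IR replicate 1, 2, 3 or 4 and without IRLacz replicate 1 or 2, with adjusted p up to 0.138 and 0.127. Without IR replicate 5 a total of 7 genes were called. Without IR replicate 1, 2, 3 or 4 or IRLacz replicate 2 it was 2.

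The other 6 genes had estimates above 0 that did not pass. Foxi1 was at 10.52, 14.93, 13.71 and 15.76 FPKM in IRLacz (log2 difference 0.43, SE 0.14, adjusted p = 0.051), and replicate 1 was the only IRLacz library inside the IR range. Without that library the adjusted p was 0.0291. Rhcg was at 59.27, 47.83, 44.74 and 46.39 FPKM, above all IR libraries (log2 difference 0.64, SE 0.21, adjusted p = 0.052). Atp6v1g3 had a log2 difference of 0.41 (adjusted p = 0.058) and Atp6v0a4 of 0.31 (adjusted p = 0.13). Slc4a1 was at 13.83, 8.98, 4.96 and 4.86 FPKM, so that replicate 1 lay within the sham range and replicates 3 and 4 within the IR range (log2 difference 1.00, SE 0.38, adjusted p = 0.087). Rhbg was at 28.52, 22.04, 16.61 and 14.25 FPKM (log2 difference 0.55, SE 0.26, adjusted p = 0.15). In 3 of the 10 genes every IRLacz library was above every IR library, against 5.33% of all entries (6.85% lay wholly below).

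Within libraries, the d2 share rose from 12.11 ± 1.42% in IR to 18.05 ± 2.46% in IRLacz and the G3 share from 8.679 ± 1.02% to 11.79 ± 2.11% (exact permutation p = 0.00794 and adjusted p = 0.0333 for both). The a4 share was 50.5 ± 6.63% and the B1 share 23.45 ± 1.94% in IRLacz, and neither difference from IR passed (exact permutation adjusted p = 0.0889 for both). With any 1 library left out, 0 of the 7 values passed after adjustment in this comparison, where fewer splits are possible and the full data were already at the smallest p. Without IRLacz replicate 1 the exact permutation adjusted p was 0.1 for the G3 share and 0.0536 for the d2 share. There the G3 share was no longer at the smallest p, although the lowest IRLacz library (10.047%) still lay above the highest IR library (9.957%). The difference of the d2 share stayed between 4.786 and 6.706 points and that of the G3 share between 2.12 and 3.697 points. Atp6v0d2 is also expressed by macrophages and osteoclasts. The macrophage genes summed to 540.87 to 1272.27 FPKM in IRLacz and to 1334.74 to 1906.06 FPKM in IR, and the osteoclast genes Ocstamp and Dcstamp stayed at or below 0.18 and 0.54 FPKM in all 19 libraries. Of 8 osteoclast genes 5 were tested, with 4 called higher in IR against sham and 2 called lower in IRLacz against IR. Mean levels in sham, IR and IRLacz were 2.666, 14.73 and 11.37 FPKM for Ctsk and 0.146, 14.5 and 2.5 FPKM for Gpnmb. They were 0.212, 2.8 and 2.093 FPKM for Mmp9 and 0.304, 1.666 and 1.205 FPKM for Itgb3. The part of macrophages or osteoclast-like cells in the Atp6v0d2 values was not tested. All 8 together summed to 60.62 to 70.34 FPKM in sham, 77.67 to 112.66 FPKM in IR and 59.79 to 62.71 FPKM in IRLacz. The largest part of these sums was Acp5, at 61.54 ± 3.72 FPKM in sham, 53.8 ± 4.31 in IR and 43.9 ± 5.26 in IRLacz.

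Of the other intercalated cell genes 6 of 17 were higher in IRLacz than in IR and 0 lower (median 0.4). Oxgr1 rose to 4.882 ± 1.04 FPKM, and Insrr, at 4.98 ± 1.38 FPKM, did not pass (adjusted p = 0.099). Among principal cell genes 5 of 14 were higher and 0 lower (median 0.595), with Aqp3 at 82.88 ± 31.6 FPKM (adjusted p = 0.043). Scnn1a and Kcnj1, at 39.4 ± 12.1 and 55.51 ± 16.3 FPKM, did not pass (adjusted p = 0.066 and 0.12). Of the proximal tubule list 0 of 10 were called by limma, with 1 at an unadjusted p under 0.05. In the thick limb and distal tubule 1 of 8 was called higher, and all 8 estimates were above 0 (median 0.995). Of the 8 acid-base genes of the proximal tubule 2 were higher and 0 lower (median 0.4), and of the 8 fibroblast genes 5 were lower (median -0.595). In the pump list Atp6v1c2 rose to 12.59 ± 2.73 FPKM and Tcirg1 and Atp6v0a1 fell to 29.58 ± 4.67 and 21.21 ± 1.79 FPKM. Urothelial genes had a median of 0.66, and their summed level was 9.06 to 63.12 FPKM in IRLacz against 9.31 to 28.89 FPKM in IR, and their part in the result was not tested.

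For the other strain, IRLac was compared with IR. By limma 0 of the 10 genes were called, and 5 had an unadjusted p under 0.05. Over all entries 0.00736% were called and 5.78% had an unadjusted p under 0.05. All 10 estimates were above 0, with a median of 0.265 and a largest value of 0.48 for Slc26a4 (95% interval 0.13 to 0.84, adjusted p = 0.56). IRLac libraries were widely spread. Rhcg was at 21.67, 29.25, 57.91, 39.66 and 48.04 FPKM, from below the IR median of 33.96 FPKM to just under the lowest sham library (58.45 FPKM). Slc4a1 was at 1.14, 3.12, 9.87, 3.77 and 6.37 FPKM, and replicate 3 was the highest for both. Without that library the log2 difference of Slc4a1 from IR went from 0.26 to -0.02 and that of Rhbg from 0.14 to -0.06. Without IR replicate 5 Slc26a4 was called higher in IRLac (log2 difference 0.65, adjusted p = 0.0366).

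The gavage groups were also compared directly. By limma 0 of the 10 genes differed between IRLacz and IRLac, against 0.0221% of all entries (0.00736% higher and 0.0147% lower). An unadjusted p under 0.05 was found for 0 of the 10 and for 16% of all entries. In 0 of the 10 genes did the libraries of these groups lie wholly apart, against 1.37% of entries higher and 1.57% lower. The estimates were all above 0 and reached 0.74 for Slc4a1 (95% interval -0.06 to 1.54) and 0.22 for Slc4a9 (95% interval 0.00 to 0.44). None of the 7 shares and ratios passed, with the smallest exact permutation p of 0.0873 for the d2 share (adjusted p = 0.204). A difference between the strains was therefore not shown for these genes. The intervals still reach log2 differences of 1.54 for Slc4a1 and 0.44 for Slc4a9.

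Compared with sham, the injured and gavaged kidneys differed by gene. In 8 of 10 genes the group means ran in the order sham, IRLacz, IRLac and IR. The exceptions were Atp6v0d2 and Foxi1, whose highest mean was in IRLacz. In IRLacz 3 genes were lower than in sham and 1 was higher, against 13.5% and 56.9% of all entries (70.3% called in all). With median-ratio scaling, under which 4347 of the 13594 entries were called lower and 4097 higher, 8 of the 10 were lower and 0 higher. Slc4a1, Slc4a9, Rhcg, Atp6v1b1 and Atp6v1g3 were then added to Slc26a4, Atp6v0a4 and Rhbg. The genes still lower were Slc26a4, at 60.3% of the sham mean (log2 difference -0.72, adjusted p = 0.0017), Atp6v0a4, at 71.6% (-0.49, adjusted p = 0.0042), and Rhbg, at 61% (-0.73, adjusted p = 0.017). The call of Rhbg was lost without IRLacz replicate 3 or 4 (adjusted p = 0.0523 and 0.0714). Atp6v0d2 was the gene that was higher, at 128% of the sham mean, and its IRLacz and sham libraries did not overlap (log2 difference 0.33, SE 0.12, adjusted p = 0.022). That difference was 0.01 with median-ratio scaling and 0.02 with quantile normalization, and neither passed (adjusted p = 0.971 and 0.892), nor did it without IRLacz replicate 4 (adjusted p = 0.0835). The d2 share, which carries no scaling, was 18.05 ± 2.46% in IRLacz and 13.36 ± 0.727% in sham (exact permutation p = 0.00794, adjusted p = 0.0333), and with any 1 library left out the difference stayed between 3.535 and 5.455 points. Its partner Atp6v0d1 was lower in IRLacz than in sham, at 70.41 ± 3.83 FPKM.

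Slc4a9 and Foxi1 were at 93.2% and 104% of the sham mean in IRLacz and were not called, with 95% intervals of the log2 difference of -0.32 to 0.13 and -0.26 to 0.34. With median-ratio scaling Slc4a9 was called lower (-0.44, adjusted p = 0.00243). The sign for Foxi1 changed with median-ratio scaling, to -0.29, and with quantile normalization, to -0.26. Slc4a1 was at 61.2% of the sham mean in IRLacz and did not pass (log2 difference -0.74, 95% interval -1.53 to 0.06). Without IRLacz replicate 1 it was called lower (-1.01, adjusted p = 0.0276). In IRLac 7 genes were lower than in sham and 0 higher, against 16.8% of all entries called lower and 58% higher (74.8% in all), and Atp6v0d2, Atp6v1g3 and Foxi1 were not called. With median-ratio scaling Atp6v1g3 (-0.60, adjusted p = 0.00164) and Foxi1 (-0.40, adjusted p = 0.0103) were called lower, as they were with quantile normalization (adjusted p = 0.0077 and 0.0197). Atp6v1g3 was also called lower with library weights (adjusted p = 0.00304) and without IRLac replicate 3 (adjusted p = 0.00446). In 5 of the 10 genes every IRLac library lay below every sham library, against 11.8% of entries (46.6% lay wholly above). The largest estimate was for Slc4a1, at 36.4% of the sham mean (log2 difference -1.48, adjusted p = 0.0011). The a4 share stayed below sham in both gavage groups, at 44.47 ± 5.73% in IRLac and 50.5 ± 6.63% in IRLacz (exact permutation adjusted p = 0.0333 for both). Tcirg1, which is in the sum of this share, was at 12.74 ± 1.7 FPKM in sham, 36.06 ± 5.34 in IRLac and 29.58 ± 4.67 in IRLacz. The Slc4a9 over Slc4a1 ratio stayed above sham in IRLac (2.653 ± 0.945, exact permutation adjusted p = 0.0333), and in IRLacz it was 1.941 ± 0.737 (adjusted p = 0.222).

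Within groups the 10 genes tended to move together from library to library, with exceptions. As a description over the 19 libraries, deviations from the group means had a median Pearson r of 0.538 over the 45 pairs of genes, from -0.249 for Atp6v0d2 with Atp6v0a4 to 0.93 for Slc4a1 with Rhcg. Atp6v1b1 had the highest mean r with the other members (0.694) and Atp6v0a4 the lowest (0.183). Foxi1 and Slc26a4 had mean r of 0.379 and 0.372. Libraries share their composition of cells and their scaling across all genes, so these values carry no p.

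The named genes outside the list whose deviations were most like those of the members were Slc2a4 (mean r 0.721), Atp6v1c2 (0.714), S100g (0.706), Kcnj10 (0.692), Kbtbd11 (0.691) and Scnn1g (0.69), each over 19 libraries. Slc2a4 encodes the insulin-responsive glucose transporter, S100g a calcium-binding protein of the distal nephron, Kcnj10 a basolateral potassium channel of the distal nephron and Scnn1g a subunit of the epithelial sodium channel. Group means of Slc2a4 were 13.47 FPKM in sham, 5.02 in IR, 6.52 in IRLac and 10.72 in IRLacz. Those of S100g were 1107.1, 292.32, 399.05 and 630.15 FPKM in the same order.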

How the data were processed

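RNA of whole kidneys was sequenced in 19 libraries. RNA was extracted with Trizol, per the labels' protocols. The authors deposited 1 table of FPKM values with a column for each library, per the file headers. HISAT, StringTie 1.0.4 and build mm9 are named in the submitters' processing notes without their roles, and the annotation, strand and filters were not stated. Other deposited tables were not used here. Names came from a RefSeq table (GRCm38.p6), which matched 18238 of 19287 entries, and promoter windows came from RefSeq on the same build, which is not the build of the deposited values. FPKM is not a count, so limma 3.58.1 (R 4.3.3) was run on log2(FPKM + 1), using its trend option, with all 4 groups in 1 model, which left 15 residual degrees of freedom. The 13594 entries that reached 1 FPKM in 4 or more libraries were kept, and p-values had Benjamini-Hochberg adjustment over them. Depth is unknown. Shares and ratios used FPKM with no pseudocount and exact permutation tests in Python 3.11.15. The steps were tested on simulated data. Titles of the samples gave groups and replicates. The members, the 13 other gene lists and the tests were chosen with earlier results of these data known. Named genes were the 10 members, the isoforms in the shares, up to 3 genes per other list with the smallest adjusted p in IR against sham, and the 6 genes most similar to the members. Genes outside this rule were named from their values or as markers. Alternatives were other scalings, pseudocounts, filters, model samples, library weights, a replicate block and leaving out libraries.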

Additional observations from a re-analysis of the deposited data

Results flagged for a closer look

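Among 68 sets of values (10 genes and 7 shares or ratios in 4 groups), 2 held a library far from the others of its group, and chance flags about 1 in 20 such sets. Atp6v1b1 in sham replicate 4 was at 41.82 FPKM, and the other sham libraries had 52.01 to 54.98 FPKM. The log2 ratio of Slc4a9 over Slc4a1 in sham replicate 3 was 0.6103, against 1.291 to 1.513 in the other sham libraries. That library also had the highest Slc4a1 value of sham, at 18.06 FPKM, and the highest summed red cell genes, at 1353.34 FPKM.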

How the results depend on the processing

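In IR against sham the count of called genes was 9 or 10 of 10 under all alternatives. In IRLacz against IR it was 4, and moved to 2 with no filter on low values, to 8 with library weights and to between 2 and 7 when 1 library was left out. Over all 13594 entries 733 were called higher and 1076 lower in the main setting, and 1448 and 1530 with library weights. With no filter they were 654 and 910 of 19287. Single calls in IRLacz against IR also changed in other settings. Rhcg and Atp6v1g3 were added when every library was scaled to the same FPKM total. Rhcg and Foxi1 were added with quantile normalization, and Foxi1 with a filter at a mean of 5 FPKM. Slc26a4 and Atp6v1b1 were lost with median-ratio scaling, where Foxi1 was added, and with only the 2 groups compared, where Rhcg was added. In IRLac against IR the count was 0 to 1 with 1 library left out. In IRLacz against sham it was 4, and moved to 8, all lower, with median-ratio scaling, 7 with only the 2 groups compared, 7 with library weights and between 2 and 5 with 1 library left out. Over all entries 7729 were called higher and 1834 lower as deposited, and 4097 and 4347 with median-ratio scaling. With only the 2 groups compared they were 7567 and 1878, and with library weights 8206 and 2119. In IRLac against sham the count of called genes was 7 to 9. Over all entries 7885 were higher and 2285 lower there as deposited, and 4489 and 4689 with median-ratio scaling. In IRLacz against IRLac it was 0 under all alternatives. Without both IRLac replicate 3 and IRLacz replicate 1, an alternative chosen after seeing the data, the counts were 3 in IRLacz against IR, 6 in IRLacz against sham and 8 in IRLac against sham. Leaving out 1 library moved the count of passing shares and ratios from 3 to between 0 and 5 in IR against sham, from 3 to between 0 and 4 in IRLac against sham, and from 2 to 0 in IRLacz against sham and in IRLacz against IR. With all libraries the unadjusted p of these values was at its smallest possible value, and losses that stayed there say nothing of stability. Some losses did not stay there. Without sham replicate 1 in IRLac against sham, the exact permutation adjusted p was 0.0833 for Slc4a9 over Slc4a1 and for Rhbg over Rhcg. It was 0.0556 for the a4 share in the same setting. Even there neither ratio overlapped between the groups. For Slc4a9 over Slc4a1 the lowest IRLac value was 1.581 and the highest remaining sham value 1.33. For Rhbg over Rhcg the highest IRLac value was -1.138 and the lowest remaining sham value -1.068.

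Signs that changed belonged to differences that were not called. Scaling moved Foxi1 in IRLacz against sham to -0.29 (median-ratio) and -0.26 (quantile), and Atp6v0d2 in IRLac against sham to -0.22 and -0.21. With 1 library left out the ranges were -0.06 to 0.29 for Rhbg and -0.02 to 0.57 for Slc4a1 in IRLac against IR, -0.04 to 0.18 for Slc26a4 in IRLacz against IRLac, -0.03 to 0.15 for Foxi1 in IRLacz against sham and -0.16 to 0.03 in IRLac against sham. For log2 ratios they were -0.0685 to 0.2473 for Slc26a4 over Slc4a1 in IRLacz against sham and -0.236 to 0.5159 in IRLac against IR, -0.3422 to 0.2801 for Slc4a9 over Slc4a1 in IRLac against IR, and -0.1605 to 0.05534 for Rhbg over Rhcg in IRLacz against IR and -0.06305 to 0.1528 in IRLacz against IRLac. For shares they were -0.3238 to 1.622 points for d2 in IRLac against sham and -0.1622 to 1.808 points for G3 in IRLacz against IRLac. The cause of these changes was not tested.

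The labels do not say what a replicate number shares. Same-numbered libraries of different groups had correlations of deviations from -0.394 to 0.23 over 27 pairs, and 3 of 19 libraries correlated best with their own number. With the replicate block the counts of called genes were 9, 4, 0, 0, 4 and 7 in this order (IR against sham, IRLacz against IR, IRLac against IR, IRLacz against IRLac, IRLacz and IRLac against sham), and the block changed no call. The shares could not be given a block, because 5 or fewer pairs cannot reach the threshold in a paired permutation test. Read depth is unknown, so counting error is not given.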
